A study of Mus musculus with 5 samples.

Results

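Collagens, the enzymes that cross-link or cleave them, and the inhibitors of those enzymes were described in the liver of 5 mice. The 74 members, of 19938 genes measured, were chosen by symbol: 44 collagen genes (Col), 22 matrix metalloprotease genes (Mmp), 4 genes of tissue inhibitors of metalloproteases (Timp) and 4 lysyl oxidase genes (Lox, Loxl1, Loxl3 and Loxl4). Each gene is represented by its brightest probe set with exactly 1 symbol. Loxl2, whose probe set carries a second symbol, was not a member, and Mmp15 was not analysed here.

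All 5 mice were wild-type C57BL/6N males aged 5 to 6 months and belonged to 1 group, with 1 array per mouse. Streptozotocin, which destroys insulin-producing beta cells, was given on each of 5 days, at 65 mg/kg, to mice 10 to 16 weeks old. Bezafibrate, a lipid-lowering fibrate and agonist of the PPAR nuclear receptors, was mixed into the food for 8 weeks from 2 weeks after streptozotocin, at 0.25% or 0.5% by weight, and the labels do not say which mouse had which. Since every mouse carried both treatments, the data give levels and the spread between livers, and no effect of either compound.

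Collagen chains wind in threes into a triple helix. Fibrillar collagens form the cables of scar and vessel walls, whereas collagen IV forms the sheet-like network of basement membranes. In liver, stellate cells and portal fibroblasts make most fibrillar collagen, and their activation in fibrosis is known for a rise of type I and III collagen and of Timp1. Lysyl oxidases cross-link the fibres, metalloproteases cleave them, and the inhibitors bind the proteases. Of the metalloproteases, Mmp2 is made as an inactive precursor that the membrane-bound Mmp14 activates in a complex with Timp2.

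The upstream sequences of the genes on which the results turn are given first: Mmp12, which had the widest spread of all members, its neighbour Mmp13, the activation partners Mmp14 and Timp2, and Col1a2 as a fibrillar collagen gene. They are RefSeq promoter windows of assembly GRCm38.p6, cut to the 250 bases before the annotated start, 5′ to 3′ on the strand of the gene. RefSeq windows were matched for 57 of the 74 members, and Mmp12 has 2 annotated starts. Capitals mark matches, on either strand, to 4 short motifs. The AP-1 motif, bound by the Jun and Fos factors of growth and stress signalling, was searched as TGANTCA. The TATA box, which positions the start of transcription in some genes, was searched as TATAAA. The CCAAT box, bound by NF-Y, was searched by the letters of its name. The GC box, bound by Sp1 and its relatives, was searched as GGGCGG.
Mmp12, annotated start 1, chr9:7344147-7344396, plus strand: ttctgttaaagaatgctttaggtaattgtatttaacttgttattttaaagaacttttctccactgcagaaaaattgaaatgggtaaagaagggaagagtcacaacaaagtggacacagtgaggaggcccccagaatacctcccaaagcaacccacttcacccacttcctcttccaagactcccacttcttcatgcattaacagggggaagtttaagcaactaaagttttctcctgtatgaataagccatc
Mmp12, annotated start 2, chr9:7347124-7347373, plus strand: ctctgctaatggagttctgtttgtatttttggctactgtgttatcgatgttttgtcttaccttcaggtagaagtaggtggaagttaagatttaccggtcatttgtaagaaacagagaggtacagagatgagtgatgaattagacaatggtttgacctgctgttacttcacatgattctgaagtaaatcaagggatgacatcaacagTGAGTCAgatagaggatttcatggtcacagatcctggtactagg
Mmp13, chr9:7272264-7272513, plus strand: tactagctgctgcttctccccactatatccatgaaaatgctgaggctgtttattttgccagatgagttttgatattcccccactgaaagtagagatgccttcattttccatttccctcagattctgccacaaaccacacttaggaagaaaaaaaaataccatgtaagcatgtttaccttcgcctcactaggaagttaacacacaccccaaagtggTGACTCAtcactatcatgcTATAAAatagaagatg
Mmp14, chr14:54431348-54431597, plus strand: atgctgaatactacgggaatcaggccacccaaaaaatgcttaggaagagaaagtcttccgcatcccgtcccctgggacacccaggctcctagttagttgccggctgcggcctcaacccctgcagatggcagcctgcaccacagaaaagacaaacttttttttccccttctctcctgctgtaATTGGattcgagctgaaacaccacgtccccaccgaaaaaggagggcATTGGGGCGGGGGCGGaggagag
Timp2, chr11:118355412-118355661, minus strand: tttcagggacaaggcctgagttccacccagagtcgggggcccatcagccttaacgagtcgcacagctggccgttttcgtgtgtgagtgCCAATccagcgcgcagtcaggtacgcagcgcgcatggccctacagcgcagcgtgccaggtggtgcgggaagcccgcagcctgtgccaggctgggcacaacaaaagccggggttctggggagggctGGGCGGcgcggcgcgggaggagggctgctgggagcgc
Col1a2, chr6:4505368-4505617, plus strand: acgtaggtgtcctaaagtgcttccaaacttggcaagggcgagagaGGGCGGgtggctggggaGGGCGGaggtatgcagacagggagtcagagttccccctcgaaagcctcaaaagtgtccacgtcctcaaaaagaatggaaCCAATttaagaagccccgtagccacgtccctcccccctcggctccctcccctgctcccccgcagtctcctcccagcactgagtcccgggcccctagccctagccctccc

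The AP-1 letters lie 44 to 38 bases before the second start of Mmp12 and 35 to 29 bases before the start of Mmp13, and Mmp13 has a TATA box 16 to 11 bases before it. Of the 10 genes of the metalloprotease cluster that holds Mmp12, 8 had the AP-1 letters in a window (all but Mmp8 and Mmp27), 7 had the TATA letters and 0 had the GC box. Over all 32851 windows of the same length, 6.75% had the AP-1 letters, 12.4% the TATA box, 33.8% the CCAAT box and 32.7% the GC box. In the Mmp14 window a CCAAT box read on the opposite strand (23 to 19 bases before the start) overlaps the first of 2 GC boxes (19 to 14) by its last base. Of 57 member genes, 30 had a GC box, 18 a CCAAT box, 13 a TATA box and 9 the AP-1 letters. These counts and those of the cluster are by gene, over any of its windows, whereas the shares over all windows are by window. By window, the shares among the 63 member windows were 49.2%, 30.2%, 20.6% and 14.3%, in the same order. An exact PPAR response element of the DR1 type was found in 0 of the 57 genes and in 0.0335% of all windows. A match is a description of letters, and the absence of one says only that these letters are not in this window.

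All levels are log2 signals, in which a difference of 1 is a 2-fold difference. They come from probes of different strength, so levels were not compared between genes. A brightness floor was taken per array from 1210 probe sets for receptors of smell and pheromones, of which liver is not known as a site: their 95th percentile, which lay between 5.59 and 6.07. Mouse 4 stood somewhat apart: its array had the highest floor and correlated with the others at r = 0.971 to 0.987, against 0.986 to 0.993 among the other 4 (Pearson, across probe sets, which are not independent). Hepatocyte markers matched the labelled tissue, with 8 of 8 genes above the floor in all mice. For each gene whose mean exceeded 5.77, the variance between the 5 mice was set against the variance expected at that level (upper-tail F test on limma's robust variance fit, Benjamini-Hochberg adjusted over 14586 probe sets). Each liver was measured once, and the spread between mice therefore holds both biological and technical spread.

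Among the members, 49 of 74 exceeded the floor in all 5 mice, 12 in some mice and 13 in none, against 60.0% of all genes above it in all mice. The collagens accounted for most of these, with 37 of 44, while 7 of 22 metalloproteases, 2 of 4 inhibitors and 3 of 4 lysyl oxidases did so. With the floor raised to the 99th percentile of the receptor probe sets, 26 members remained in all mice. These were 21 collagens, among them Col1a1, Col1a2, Col3a1, Col4a1, Col4a2, Col5a1, Col6a1, Col6a2, Col14a1, Col15a1 and Col18a1, and further Mmp2, Mmp14, Mmp19, Timp2 and Timp3. Some collagens in this set, such as the cartilage gene Col2a1 (mean 7.11), are not known as liver genes, so a signal above the floor was not taken as proof of expression. A mean above 5.77, which put a gene into the test of variance, was reached by 55 of 74 members, against 66.9% of all genes. Without mouse 4, whose floor was highest, 56 members exceeded the 95th percentile floor in all remaining mice.

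**Figure D1:**
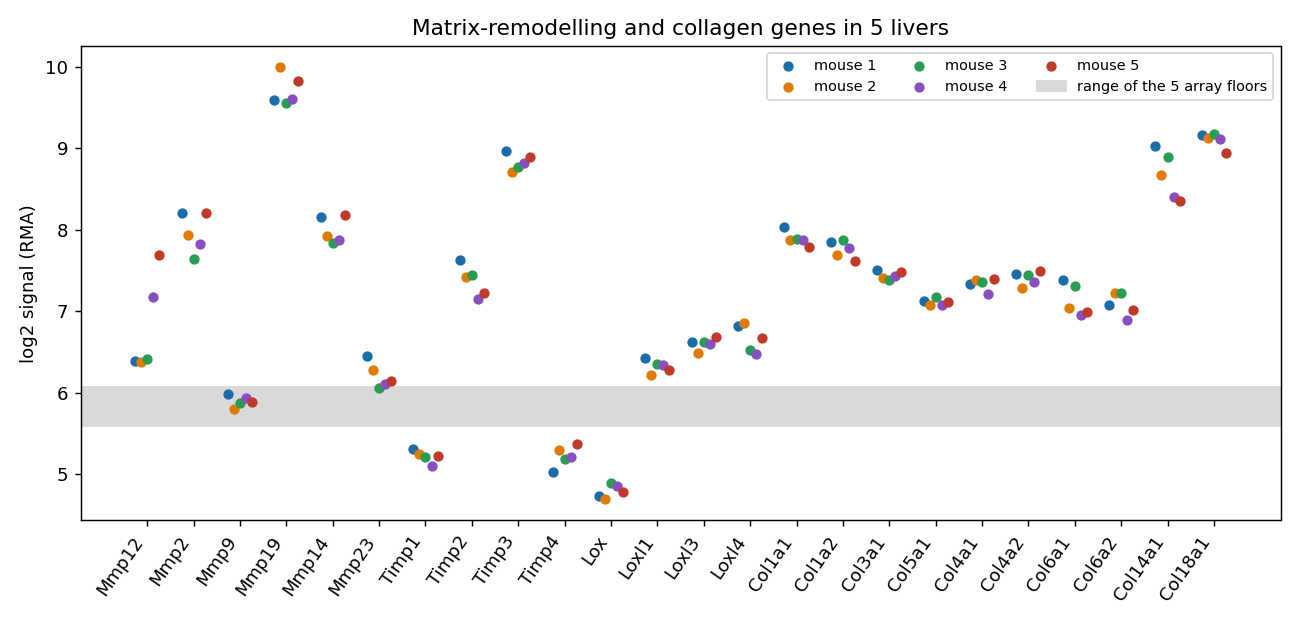
Log2 signal of 24 member genes in each of the 5 mice (1 point per mouse), with the range of the 5 array floors in grey. Mmp12 is split between 3 mice near 6.4 and mice 4 and 5 at 7.18 and 7.69, Timp1, Timp4 and Lox lie below the grey band in all mice, and levels of different genes are not comparable.

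No member had a variance that passed the adjusted threshold: 0 of 55 tested members, against 0.357% of all probe sets tested (52 of 14586). Without mouse 4, 0 members and 0 probe sets in all passed limma's test (3 and 864 at an unadjusted p under 0.05). At an unadjusted p under 0.05 there were 2 of 55 members, Mmp12 and Col14a1, against 6.34% of all probe sets. With 5 mice the adjusted test passes only a spread several times the expected SD, so a variance that did not pass is not shown to equal the expected one. The collagens were mostly less variable than the level predicts. Of 41 tested collagens, 9 had a variance above the expected one, against 47.0% of all genes tested, and the median ratio of observed to expected variance was 0.532, against 0.931 over all genes. For the 21 collagens above the stricter floor in all mice the median ratio was 0.454, with 4 above 1. The 9 tested metalloproteases had a median ratio of 1.57, with 6 above 1. These shares describe the members and were not tested against each other.

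**Figure D2:**
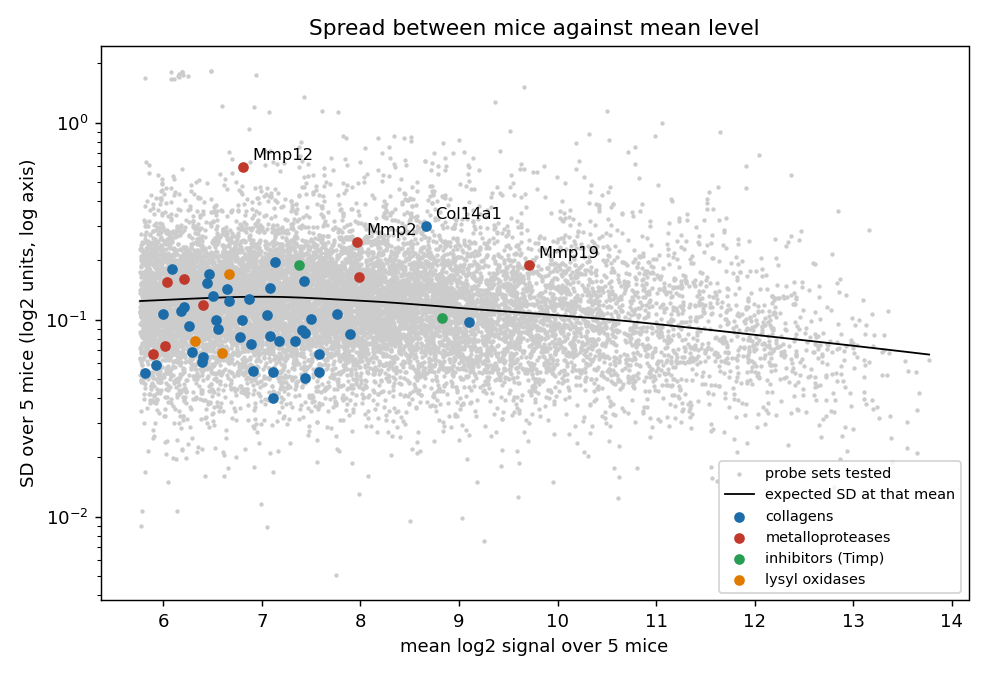
SD over the 5 mice (log axis) against the mean log2 signal, for all tested probe sets (grey), the tested members by family (colours) and the expected SD (black line). Most collagens lie below the line, with a median variance ratio of 0.532, and Mmp12 lies farthest above it among the members.

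Among the proteases, Mmp12 differed most between mice. Mmp12 encodes macrophage metalloelastase, which cleaves elastin. Its level was 6.39, 6.38, 6.42, 7.18 and 7.69 in mice 1 to 5. Mice 1 to 3 were within 0.1 of each other and mice 4 and 5 stood apart above them, a span of 2.48-fold, with a mean of 6.81 ± 0.60 (SD, n = 5) where an SD of 0.13 was expected. The limma F test gave an unadjusted p of 0.000967 and an adjusted p of 0.117. The adjusted p lay between 0.0274 and 0.357 over 9 alternative settings and passed only with arrays centred on their medians (0.0274). Without mouse 5 the SD was 0.39, and without mouse 4 it was 0.65. The mean deviation of 10 tested Kupffer cell and macrophage genes from their own means was 0.34, -0.16, -0.07, -0.19 and 0.08 in mice 1 to 5, highest in mouse 1 and lowest in mouse 4. Of these genes, 8 were highest in mouse 1, against 23.9% of all genes tested. In mouse 4, 6 of them were lowest, against 36.5% of all genes tested. Of the 12 measured, 9 exceeded the floor in all mice and Itgam and Ccr2 in none. The 3 tested neutrophil markers, all near the floor, had their highest mean deviation in mouse 4 (0.11). Camp and Elane were highest there and S100a9 in mouse 5, and Camp (5.99) lay under the floor of array 4 (6.07). Of the 10 neutrophil markers measured, 7 were below the floor in all mice. The part of macrophages or neutrophils in the Mmp12 level was not tested.

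Mmp12 is one of 10 metalloprotease genes that follow each other on the chromosome, with 0 other protein-coding genes between them in RefSeq. In their order these are Mmp13, Mmp12, Mmp1b, Mmp3, Mmp1a, Mmp10, Mmp8, Mmp27, Mmp20 and Mmp7, and they include the interstitial collagenases Mmp1a, Mmp8 and Mmp13. Mmp12 was the single gene of the cluster above the floor in all 5 mice. Mmp13, the main interstitial collagenase of rodents, was 5.73, 5.56, 5.87, 5.65 and 5.98 in mice 1 to 5 and exceeded the floor in 3 of them. Mmp10 exceeded it in mouse 1 alone (5.70 against 5.59), and its highest value, 5.99 in mouse 4, lay under that array's floor of 6.07. Mmp7 exceeded it in mouse 5 alone (6.02 against 5.73). The other 6 genes were below the floor in every mouse, with means from 3.94 (Mmp1b) to 5.43 (Mmp27). Mmp8, the neutrophil collagenase, had a mean of 4.19. The highest values of Mmp13 and Mmp7 (5.98 and 6.02) were those of mouse 5, in which Mmp12 was also highest, but both lie near the floor.

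**Figure D3:**
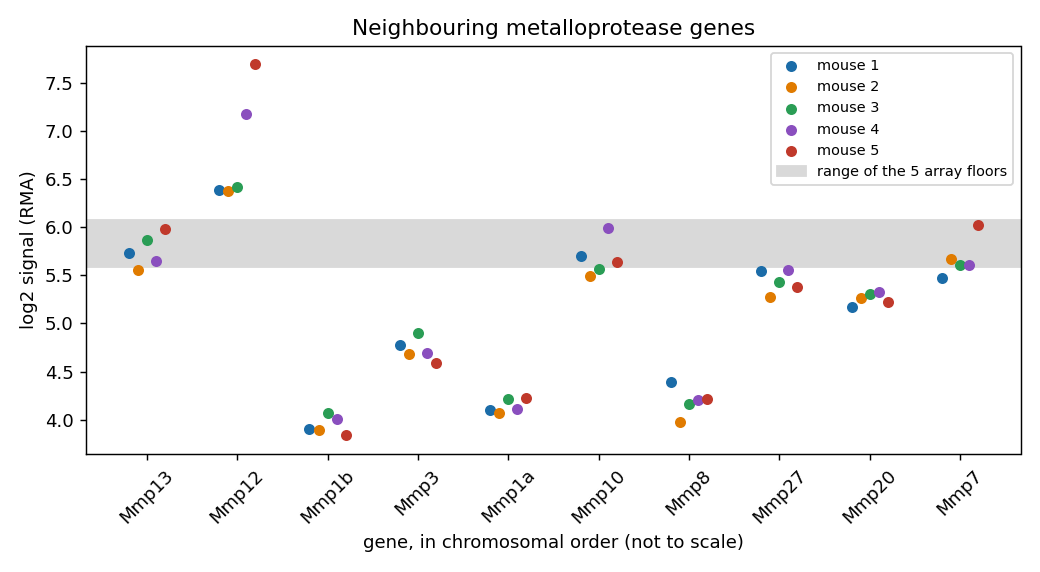
Log2 signal of the 10 neighbouring metalloprotease genes in chromosomal order (spacing not to scale), 1 point per mouse, with the range of the array floors in grey. Only Mmp12 lies above the grey band in all 5 mice.

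The gelatinase Mmp2, which cleaves denatured collagen and collagen IV, was 8.21, 7.94, 7.64, 7.83 and 8.21 in mice 1 to 5. Mice 1 and 5 were high and mouse 3 low, a span of 1.49-fold (mean 7.97 ± 0.25, SD, n = 5, limma adjusted p = 0.860). Its activator Mmp14, a membrane-bound collagenase, was 8.16, 7.92, 7.84, 7.87 and 8.18. The same mice 1 and 5 were highest and mouse 3 lowest, with a smaller span of 1.26-fold and an SD of 0.16 (limma adjusted p = 0.992). The third partner did not share this order. Timp2, which both helps to activate and inhibits Mmp2, was 7.63, 7.42, 7.45, 7.15 and 7.23, highest in mouse 1 and low in mice 4 and 5 (mean 7.38 ± 0.19, span 1.40-fold, limma adjusted p = 0.992). As a result the deviation of Mmp2 less that of Timp2 was -0.01, -0.07, -0.40, 0.09 and 0.39 in mice 1 to 5, so mice 3 and 5 lay at opposite ends. None of these 3 variances passed the test, and with 5 livers the likeness of Mmp2 and Mmp14 is a description of these mice.

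Mmp19, a secreted protease that is widely expressed, had 9.59, 9.99, 9.55, 9.60 and 9.83 in mice 1 to 5. Mouse 2 was highest and mice 1, 3 and 4 were nearly equal (mean 9.71 ± 0.19, SD, n = 5, span 1.35-fold, limma adjusted p = 0.965). Mmp9, the gelatinase of neutrophils and macrophages, was 5.99, 5.80, 5.88, 5.93 and 5.89, within 0.18 of each other and above the floor in 4 mice. Neutrophil markers were likewise at or near the floor, with 7 of 10 genes below it in all mice and 2 of 10 above it in all. Of the other membrane-bound proteases, Mmp23 had a mean of 6.21 ± 0.16 and Mmp24 of 6.40 ± 0.12, both above the floor in all mice. Mmp16 and Mmp25 were below it in all mice, and Mmp17 exceeded it in 4 with a mean of 5.73. Mmp11 (6.02 ± 0.07) exceeded it in all mice and Mmp28 (6.04 ± 0.16) in 4.

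Among the inhibitors, Timp3 and Timp2 were measured above the floor and Timp1 and Timp4 were not. Timp3, which binds to the matrix itself, was 8.97, 8.71, 8.77, 8.82 and 8.89 in mice 1 to 5, a mean of 8.83 ± 0.10 (SD, n = 5, limma adjusted p = 0.992). Mouse 1 was highest in both Timp2 and Timp3. Timp1, the inhibitor known for its rise in liver fibrosis, was 5.31, 5.25, 5.21, 5.10 and 5.23, below the floor of every array. Timp4 was below it too, at a mean of 5.22.

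Of the 4 lysyl oxidases, 3 exceeded the floor in all mice, and Loxl4 varied most. Lox, the founding member of the family, was below the floor in all mice at 4.73, 4.70, 4.89, 4.86 and 4.78. Loxl1 (6.32 ± 0.08, SD, n = 5), linked to elastic fibres, and Loxl3 (6.60 ± 0.07) exceeded the floor in all mice. Loxl4 was 6.82, 6.86, 6.53, 6.47 and 6.67, higher in mice 1 and 2 than in mice 3 and 4, with a span of 1.30-fold (limma adjusted p = 0.992). Loxl4 has a second probe set that was below the floor in all mice (mean 4.32), so its 2 probe sets disagree, as do those of Col6a5 (6.44 and 5.24) and Col6a6 (7.50 and 5.43).

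The fibrillar collagens of scar tissue were nearly level between mice. Col1a1, the main chain of type I collagen, was 8.03, 7.88, 7.89, 7.87 and 7.79 in mice 1 to 5. Its partner chain Col1a2 was 7.85, 7.69, 7.87, 7.77 and 7.62. Both were lowest in mouse 5, and the spans were 1.18-fold and 1.19-fold. Col3a1, of type III collagen, spanned 1.09-fold, with 7.50, 7.41, 7.38, 7.43 and 7.48. Unlike the type I chains it was second highest in mouse 5, and the deviation of Col1a1 less that of Col3a1 was 0.07 in mouse 1 and -0.14 in mouse 5. Col5a1, a chain that starts fibrils, had the lowest SD of all tested members (7.11, SD 0.0398, span 1.07-fold), and Col5a2 had an SD of 0.0687. The widest of the 11 fibrillar genes were Col27a1 (7.43 ± 0.16), highest in mouse 3 at 7.69, and Col24a1 (6.50 ± 0.13), both better known from cartilage and bone. None of the 11 variances passed (lowest limma adjusted p = 0.992).

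The basement membrane chains were nearly level too, with a median SD of 0.0714 over 6 genes, against 0.0846 over the 11 fibrillar genes. Col4a1 was 7.33, 7.38, 7.36, 7.21 and 7.40 and Col4a2 was 7.46, 7.28, 7.44, 7.36 and 7.49 in mice 1 to 5. These 2 genes lie head to head and their products assemble with each other, and mouse 5 was highest for both. Their order differed in the other mice, with Col4a1 lowest in mouse 4 and Col4a2 in mouse 2. The deviation of Col4a1 less that of Col4a2 reached 0.18 in mouse 2 and lay between -0.09 and 0.00 elsewhere, and the SDs of the genes were 0.0778 and 0.0882. Col4a3, a chain of the kidney and lung network, was 6.47, 6.32, 6.72, 6.48 and 6.29 and the widest of the class (SD 0.17, limma adjusted p = 0.992), while its neighbour Col4a4 had an SD of 0.0649. Col4a5 (5.93) and Col4a6 (5.81) were near the floor and exceeded it in 4 mice each.

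Col14a1 was the most variable collagen. Collagen XIV sits on the surface of fibrils and is made by fibroblasts. Its level was 9.03, 8.67, 8.89, 8.40 and 8.35 in mice 1 to 5, with mice 1 and 3 high and mice 4 and 5 low, a span of 1.60-fold (mean 8.67 ± 0.30, SD, n = 5). The limma F test gave an unadjusted p of 0.0224 and an adjusted p of 0.587, and over 9 alternatives the adjusted p lay between 0.504 and 0.971. Among 12 marker lists, the erythroid one had the same mice at its extremes, with mean deviations of 0.45, -0.13, 0.32, -0.33 and -0.30. It rests on 2 tested genes of 4 measured (Epb42 and Rhag were below the floor in all mice). Alas2 (SD 0.552) had mice 1 and 3 high and mice 4 and 5 low. Slc4a1 varied less (SD 0.193), and its level in mouse 2 (6.55) was below that in mouse 4 (6.57). Markers of portal fibroblasts and mesothelium deviated by 0.10, 0.11, 0.00, -0.16 and -0.04 (11 of 11 tested). Stellate cell and myofibroblast markers deviated by 0.13, -0.04, -0.02, -0.09 and 0.03 (14 of 15 tested). The part of any of these cell types in the spread of Col14a1 was not tested. In whole liver, fewer cells of a type and less RNA per cell cannot be told apart.

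Of the remaining collagens, the chains of collagen VI, a microfibril that links cells to the matrix, differed in order between mice. Col6a1 was 7.38, 7.04, 7.31, 6.95 and 6.99, whereas Col6a2, with which it assembles, was 7.08, 7.23, 7.22, 6.89 and 7.01. Mice 4 and 5 were low for both, mouse 1 was highest for Col6a1 and in the middle for Col6a2, and the deviation of Col6a1 less that of Col6a2 was 0.25 in mouse 1 and -0.23 in mouse 2. Col6a3 had an SD of 0.0818, and Col6a5 spanned 1.35-fold around 6.44. Col18a1, the source of endostatin and a basement membrane collagen made by hepatocytes, was 9.16, 9.12, 9.18, 9.11 and 8.94, lowest in mouse 5 (SD 0.0967). Its relative Col15a1 was 6.87 ± 0.13 and highest in mouse 3. Col20a1 had a mean of 6.65 ± 0.14. Col8a1 and Col8a2 of the vessel wall had means of 6.21 and 6.09, with SDs of 0.12 and 0.18. Col10a1, a gene of growth plate cartilage, was below the floor in all mice (4.98), and Col19a1 and Col28a1 exceeded it in 1 mouse each. The other tested collagens had SDs of 0.0539 (Col26a1) to 0.125 (Col22a1).

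Set side by side, the fibrillar and basement membrane classes both had their highest mean deviation in mouse 3, but not in the same way. The 11 fibrillar genes deviated on average by 0.01, -0.04, 0.09, -0.01 and -0.05 in mice 1 to 5, and the 6 basement membrane genes by 0.00, -0.05, 0.06, -0.03 and 0.02. The basement membrane value of mouse 3 came mainly from Col4a3 (0.26), while the other 5 genes deviated by -0.01 to 0.03 there. Of the 6 genes, 1 was highest in mouse 3 and 4 in mouse 5, and with the median over members in place of the mean, mouse 5 was highest. Of all genes tested, 19.2% were highest in mouse 5. The count of 4 depended on the scaling: it was 3 after quantile normalization and 2 with arrays centred on their medians. Of the 11 fibrillar genes, 8 were highest in mouse 3. Their deviations there ran from -0.06 (Col3a1, for which mouse 3 was lowest) to 0.26 (Col27a1). Of the type I chains, Col1a1 deviated by 0.00 and Col1a2 by 0.11 in that mouse. The difference between the classes was 0.01, 0.01, 0.03, 0.02 and -0.07, so it was within 0.03 in mice 1 to 4 and mouse 5 alone held most of its range of 0.096. Without mouse 5 the range was 0.02. These are class means, which vary less than single genes do. Over all genes tested the mean deviations were 0.03, 0.03, 0.00, -0.06 and 0.00.

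Mouse 3 was where collagens were most often highest. Of 41 tested collagens, 21 were highest in mouse 3, against 22.9% of all genes tested. This count depended on the scaling: it was 18 of 41 after quantile normalization, and 14 of 41 with arrays centred on their medians, when 13 were highest in mouse 1. The fibrillar genes highest in mouse 3 numbered 7 of 11 after quantile normalization and 4 of 11 with median centring, when 5 of 11 were highest in mouse 1. Mouse 4 held the highest value of 5 collagens (8.47% of all genes tested) and mouse 5 also of 5 (19.2%). The mean deviation of the 41 collagens in mouse 3 stayed the highest of the 5 mice under all 3 scalings (0.10, 0.09 and 0.07). Without mouse 3 the range of the fibrillar class over mice was 0.0627 instead of 0.138, and that of all collagens 0.0449 instead of 0.141.

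The metalloproteases above the floor were on average lowest in mouse 3. The 9 tested metalloproteases deviated on average by 0.04, -0.03, -0.15, -0.03 and 0.17 in mice 1 to 5, and 5 of the 9 were lowest in mouse 3, against 18.9% of all genes tested. The mean in mouse 3 was -0.16 after quantile normalization and -0.17 with arrays centred on their medians. Over all 22 measured metalloproteases, most of them near or below the floor, the lowest mouse was mouse 2, and the range over mice was 0.149. The deviation of all collagens less that of the metalloproteases was -0.04, 0.00, 0.24, 0.01 and -0.21, largest in size in mice 3 and 5. Mmp12 alone deviated by 0.88 in mouse 5, against 0.25 for the next of the 9 (Mmp2). It therefore weighed heavily in the class value of mouse 5 and in the difference from the collagens there. With the median over members in place of the mean, mouse 1 was highest for the metalloproteases. With each gene divided by its SD, mouse 5 stayed highest. Without mouse 5 the range of the protease class was 0.185, and without mouse 3 it was 0.196, against 0.312 with all mice. The 2 tested inhibitors deviated by 0.20, -0.04, 0.00, -0.12 and -0.04, and without mouse 1 their range was 0.123 instead of 0.314. The 3 tested lysyl oxidases ranged over 0.15, and 0.0687 without mouse 1. These averages rest on members whose mean passed the floor, and a group of 5 values centred on its mean gives no test.

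**Figure D4:**
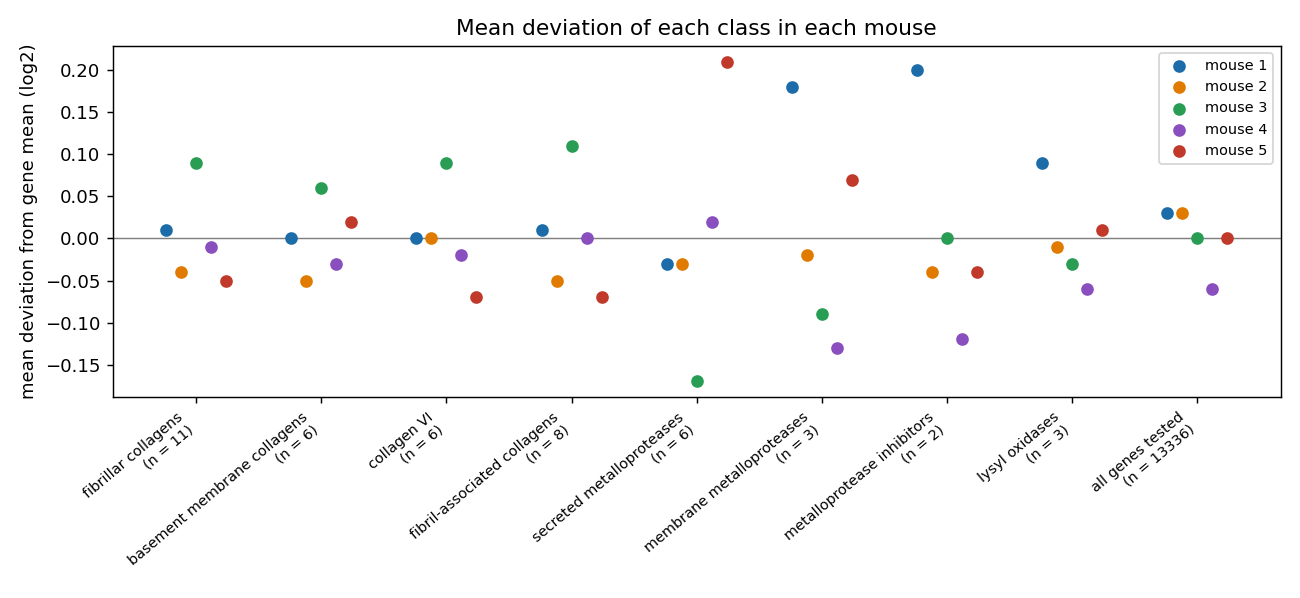
Mean deviation of the tested members of each class from their gene means (log2) in each mouse, beside all genes tested. Mouse 3 is highest in the 4 collagen classes shown (0.06 to 0.11) and lowest in secreted metalloproteases (-0.17), and mouse 1 is highest in membrane metalloproteases (0.18) and inhibitors (0.20).

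Markers of the cells that make matrix were set beside these values. Of 15 stellate cell and myofibroblast markers, 14 exceeded the floor in all mice and Gfap in none, and their mean deviations were 0.13, -0.04, -0.02, -0.09 and 0.03 in mice 1 to 5. Acta2, the actin of activated stellate cells and smooth muscle, was 9.17, 8.68, 8.65, 8.63 and 8.71, highest in mouse 1, and Lrat, of vitamin A storage in quiescent stellate cells, was 9.30, 9.20, 9.32, 9.26 and 9.38. Endothelial markers (13 of 13 above the floor) deviated by 0.07 in mouse 1 and by -0.05 to -0.01 in the others. Skeletal muscle markers deviated by 0.56 in mouse 1 and by -0.25 to -0.04 in the others, with 5 of 10 genes above the floor in all mice and Myh4 and Mylpf in none. Mouse 1, highest for Timp2, Timp3, Col1a1, Col3a1, Col6a1 and Col14a1, was thus also highest for stellate, endothelial, Kupffer, erythroid and muscle markers, and the part of these in those values was not tested. Mouse 3, highest for the collagens on average, was not highest for the marker lists of stellate cells, portal fibroblasts or endothelium. Its mean deviation was the highest for adipocyte (0.08), lymphocyte (0.07) and pancreas (0.10) markers, lists with few tested genes. Of the tested adipocyte genes, 3 were highest in mouse 3 and 2 (Cidec and Fabp4) in mouse 5. The lymphocyte genes Cd8a and Cd4 and the pancreas gene Cpa1 had means near the floor (5.93, 5.90 and 5.97). Cholangiocyte markers (5 of 6 tested, Cftr below the floor in all mice) deviated by -0.03, 0.11, -0.13, -0.02 and 0.08. Adipocyte markers deviated by -0.10 to 0.08 (5 of 7 tested, Adipoq and Lep below the floor in all mice) and lymphocyte markers by -0.07 to 0.07 (3 of 8 tested, with Cd79a, Ms4a1, Cd3g and Klrb1c below it). Pancreas markers (2 of 4 tested, Ins2 and Gcg below the floor) deviated by -0.14 to 0.10.

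**Figure D5:**
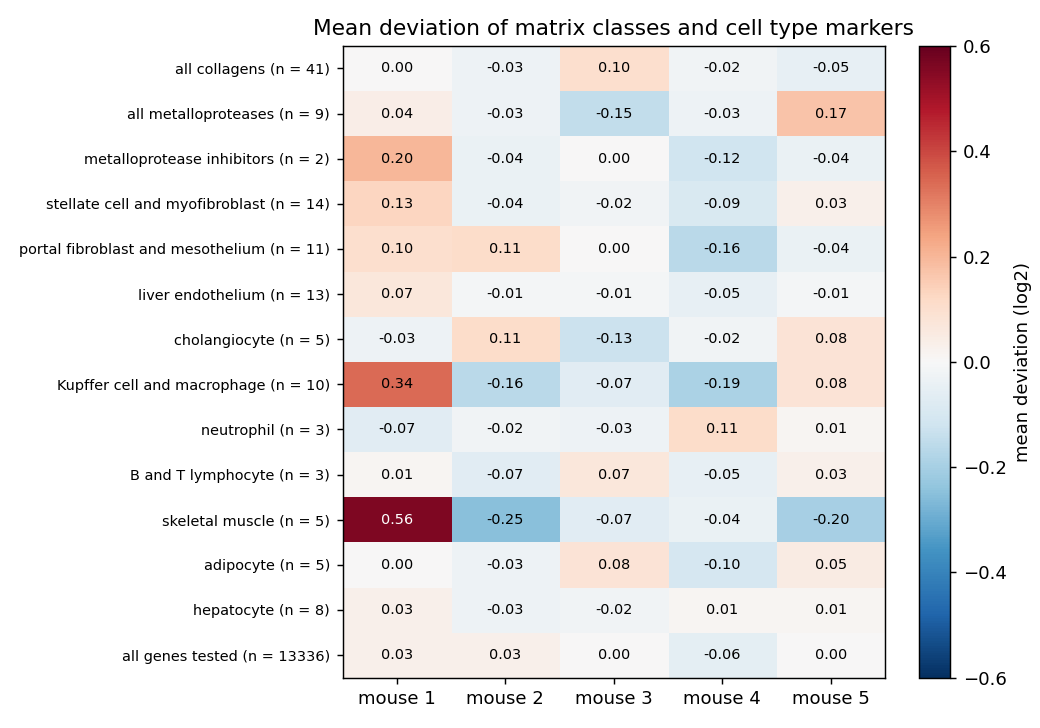
Mean deviation (log2) of collagens, metalloproteases, inhibitors and marker lists of cell types in each mouse, with the number of tested genes. Skeletal muscle (0.56) and Kupffer cell markers (0.34) are highest in mouse 1, and collagens (0.10) in mouse 3.

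Other genes of matrix assembly and signalling had median variance ratios from 0.452 (collagen receptors and uptake) to 1.4 (other matrix proteins), against 0.532 for the collagens. Over 6 lists with 119 measured genes, 0 of 108 tested genes had a variance that passed limma's test at the adjusted threshold (0.357% of all probe sets did), and 7 had an unadjusted p under 0.05, a share near the 6.34% of all probe sets. The genes named from these lists are those with the largest SD and are given as descriptions. Among genes of collagen synthesis (21 tested, median SD 0.125), Pcolce, an enhancer of procollagen cleavage, was 8.17, 7.53, 7.95, 7.52 and 7.72 (SD 0.28, limma adjusted p = 0.740). It was high in mice 1 and 3 and low in mice 2 and 4. Crtap (SD 0.19) and P3h4 (0.16), of proline hydroxylation, followed. Collagen receptors and uptake genes had a median SD of 0.0795 over 11 tested, the widest being Lair1 (0.18), Ddr1 (0.17) and Itga1 (0.12).

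Among other matrix proteins, 15 of 22 tested genes were highest in mouse 1 on the deposited scale, against 23.9% of all genes tested. Fmod (fibromodulin), a proteoglycan that binds collagen fibrils, was 7.18, 6.25, 5.78, 5.79 and 5.96, high in mouse 1 and below the floor in mice 3 and 4 (SD 0.58, limma adjusted p = 0.116, range 0.0155 to 0.956 over 9 alternatives). Without mouse 1 its SD was 0.22, and without mouse 5 its adjusted p was 0.0478. Tnxb (SD 0.29), which was lowest in mouse 5, and Mgp (0.27) followed. Laminins, nidogens and perlecan (17 tested, median SD 0.117) included Lamb3, 8.06, 8.58, 7.83, 8.12 and 7.97 in mice 1 to 5 (SD 0.28, limma adjusted p = 0.718), and Nid1 (SD 0.23) and Agrn (0.18).

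In the list of TGF-beta and PDGF signalling, 13 of 22 tested genes were highest in mouse 1 on the deposited scale, against 23.9% of all genes tested. No CCN gene was among these 22. The widest was Smad3, a transducer of TGF-beta signals, at 8.33, 8.35, 7.89, 8.22 and 8.62, lowest in mouse 3 (SD 0.27, limma adjusted p = 0.757). Pdgfd (SD 0.21) and the TGF-beta binding protein gene Ltbp4 (0.19) followed. Of genes that activate or restrain metalloproteases (15 tested, median SD 0.119), Tfpi2, a protease inhibitor, was 10.36, 10.37, 10.38, 10.11 and 9.77 and lowest in mouse 5 (SD 0.27, limma adjusted p = 0.554). Mouse 5 was the mouse with the highest Mmp12, and a link between Tfpi2 and Mmp12 was not tested. Of the 15 genes, 6 were lowest in mouse 5, against 21.6% of all genes tested. Plaur, the urokinase receptor, and Reck, a membrane-anchored inhibitor of Mmp2, Mmp9 and Mmp14, had SDs of 0.18 and 0.17.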

How the data were processed

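Total RNA of 5 livers was hybridised to Affymetrix whole-transcript arrays. The authors deposited 1 log2 value per probe set and array, and the submitters' processing notes name RMA and Affymetrix Expression Console 1.2 without settings. RMA equalises array distributions at the level of single probes and compresses differences near background. The deposited probe set values still differed between arrays, with medians from 6.22 (mouse 2) to 6.31 (mouse 4). Of 35556 probe sets, 21789 had exactly 1 symbol in the platform annotation (21698 matched RefSeq by gene ID), giving 19938 genes. Each probe set was fitted by its mean over the 5 mice in limma 3.58.1 (statmod 1.5.0, R 4.3.3) to the 14586 probe sets, of 13336 genes, above the floor of the means (4 residual and 6.21 prior degrees of freedom). On data simulated from its own variance fit, the test found most of the largest simulated increases in spread but missed most of the smaller ones. The few false calls there follow from that setting and do not show how often the real data give false calls. Class values average deviations from gene means over tested members. Summaries used Python 3.11.15, numpy 2.4.6 and pandas 2.3.3. Array number limits the precision. The members, lists and rules were chosen with earlier results of these data known. Named were preselected genes, where measured, members with an unadjusted p under 0.05, the 2 widest of each class and the 3 widest of each pathway list. Other members are named to account for the rest, after their values were seen. The alternatives covered normalization, filters, variance fit, summaries and leaving out each mouse.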

Additional observations from a re-analysis of the deposited data

Results flagged for a closer look

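Among 69 sets of 5 values examined (named genes and class deviations), 2 had a mouse far from the other 4, where chance flags about 1 in 20. Ddr1, a collagen receptor gene, was 7.11 in mouse 5 and 6.79 in the next highest mouse, a gap of 0.761 of its whole range. Agrn, which encodes the basement membrane proteoglycan agrin, was 7.01 in mouse 4 and 7.36 in the next lowest, a gap of 0.771 of the range. Both are non-members, and neither variance passed limma's test (adjusted p = 0.992 for each). Of the 38 members and the classes among these sets, 0 met this criterion. The other members were not examined in this way.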

How the results depend on the processing

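No paired analysis was possible because there is 1 group. The count of members past limma's adjusted threshold was 0 under all alternatives run (1 to 3 at an unadjusted p under 0.05) except arrays centred on their medians, where it was 1 (Mmp12), and pathway genes gave 1 there too (Fmod) and 1 without mouse 5 (Fmod), 0 without any other mouse. Over all probe sets the count of 52 was 142 with arrays centred on their medians, 29 with probe sets above the floor on every array, 18 at the 99th percentile, 24 without the trend, 18 without the robust step, 31 with probe sets of a gene averaged, 0 with all probe sets in the fit (1964 at an unadjusted p under 0.05) and 0 to 69 with a mouse left out (0 without mouse 4). Members above the floor in all mice numbered 26 at the 99th percentile and 49 to 56 with a mouse left out. Ranges of class deviations moved with the members used. With all measured members they were 0.176 for secreted proteases, 0.176 for membrane proteases, 0.164 for inhibitors, 0.083 for lysyl oxidases and 0.149 for all metalloproteases, with mouse 2 in place of mouse 3 the lowest for secreted and all metalloproteases and in place of mouse 4 for lysyl oxidases. Centred on medians they were 0.227 for lysyl oxidases and 0.121 for all members, and with probe sets averaged 0.0857 for lysyl oxidases. The basement membrane range was 0.161 with members above the floor on every array, and the fibrillar less basement membrane range was 0.191 with medians over members. With genes divided by their SD, the lowest mouse became mouse 2 for fibrillar (1.41), fibril-associated (1.59) and all collagens (1.27) and lysyl oxidases (1.44), in units of gene SDs. With a mouse left out the ranges were 0.0627 to 0.138 (fibrillar), 0.0723 to 0.114 (basement membrane), 0.07 to 0.161 (collagen VI), 0.154 to 0.276 (Col15a1 and Col18a1), 0.0843 to 0.186 (fibril-associated), 0.0543 to 0.157 (other collagens), 0.0449 to 0.141 (all collagens), 0.196 to 0.388 (secreted proteases), 0.202 to 0.311 (membrane proteases), 0.185 to 0.312 (all metalloproteases), 0.123 to 0.314 (inhibitors), 0.0687 to 0.15 (lysyl oxidases) and 0.02 to 0.096 (fibrillar less basement membrane). The lowest of these were reached without mouse 3 for the fibrillar, collagen VI, fibril-associated, other and all collagens, without mouse 5 for Col15a1 and Col18a1, the secreted and all metalloproteases and the fibrillar less basement membrane difference, and without mouse 1 for inhibitors and lysyl oxidases. The cause was not tested. Signals near the floor limit what can be said of the 25 members that did not exceed it in all mice.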
